A study of Homo sapiens with 15 samples.

Results

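Intermediate-dose ascorbic acid (AA, vitamin C) was compared with no treatment in MT-2 cells, CD4+ T cells of a line that human T-cell leukaemia virus type 1 (HTLV-1) had transformed. The comparison takes the 3 arrays of cells given AA at 50 µg/ml and the 3 arrays of untreated cells, which are 6 of the 15 arrays of the series. They were chosen by their labels alone, and each treated array was joined to the untreated array whose title ends in the same experiment tag. Both groups were kept for 48 hours in the same serum-supplemented medium with gentamicin, and neither received IFN-α. The other 9 arrays hold cells given AA at 10 or 100 µg/ml or IFN-α at 1000 IU/ml, with 3 arrays each, and they enter here as further doses or through the shared estimate of the spread. The labels describe 3 separate RNA experiments, but the tags of experiments 2 and 3 carry 1 date and differ by a letter, so that the independence of these from each other is uncertain. MT-2 is 1 cell line carrying its virus in every group, which limits what the arrays can stand for. The question was which transcripts differ from untreated cells between the low and the high dose of AA.

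AA is an electron donor that scavenges oxidants and also, by reducing iron and copper in culture medium, can generate hydrogen peroxide. It is a cofactor of iron-dependent dioxygenases that hydroxylate proline and demethylate histones and DNA. It enters cells by sodium-coupled transporters, or in its oxidised form by glucose transporters. ATF4 is a transcription factor whose translation rises when amino acids are short or unfolded proteins collect in the endoplasmic reticulum (ER), and its targets import and make amino acids, charge tRNAs and regulate survival. In HTLV-1-transformed T cells the precursor transcript of the microRNA miR-155 is abundant, and miR-155 is a known regulator of lymphocyte growth.

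Values are the authors' log2 RMA values for each transcript cluster (a group of probes on the Affymetrix Human Gene 1.0 ST Array that reads a gene), so that a difference of 1 is a doubling. The median of the AA50 and untreated arrays lay between 6.73 and 6.80, and the mean correlation of each with the other arrays was 0.993 to 0.995. Replicate 3 of the high dose stood apart, with a mean correlation of 0.976. It is in neither group but widens the shared estimate of the spread. All 8 marker genes of CD4+ T cells were measured, with a mean value between 8.26 and 8.30 on the AA50 arrays and between 8.25 and 8.29 on the untreated arrays, and 0 of them lay below the lower quartile, a term used here for a cluster below the 25% quantile of the array on all 3 arrays of a group (the untreated one where none is named). By the mean over all arrays, 1 of the 8 was among the dimmest 25.0% of clusters. The median of the 8 was lower than their mean, at 7.17 in AA50 and 7.16 in untreated cells. That of all genes was 7.31 and 7.33, so the mean rests on a few bright markers. The mean values of marker lists of other cell types (CD8+ T and NK cells, B cells, monocytes, fibroblasts and epithelium, erythroid cells and platelets) lay between 5.72 and 6.65 on the AA50 arrays and between 5.72 and 6.57 on the untreated arrays. Their medians lay between 6.02 and 6.85 in AA50 cells and between 5.96 and 6.73 in untreated cells.

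The results turn on few transcripts, and the miR-155 precursor is the one with a short mature product. The mature sequences of both arms are shown because the array reads only the precursor and host transcript, not these products. They are from RefSeq (build GRCh38.p14, chr21:25573983-25574006 and chr21:25574022-25574043, plus strand), written 5′ to 3′ with the seed (bases 2 to 8) in capitals. The 2 arms do not share a seed.
hsa-miR-155-5p: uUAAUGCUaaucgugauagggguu
hsa-miR-155-3p: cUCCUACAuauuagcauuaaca

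AA at 50 µg/ml moved few transcripts past the threshold of the study's methods (limma, unadjusted two-sided p under 0.001). Of 28926 clusters 9 passed, or 0.0311%, against 28.9 expected if no cluster changed. All 9 were lower than in untreated cells, by 0.46 to 0.77 on the log2 scale, and in all 9 every AA50 array lay below every untreated array. Such a separation without overlap was found in the lower direction for 4.67% of all clusters and in the higher direction for 5.69%. After adjustment by Benjamini and Hochberg 0 clusters passed 0.05 in limma, and the smallest adjusted p = 0.9998. An unadjusted p under 0.05 was reached by 678 clusters, 425 of them lower (1.47% of all) and 253 higher (0.875%). Single unadjusted p values are not given with 3 arrays in a group, and the standard error of each change (SE, from limma) is given in their place. Of the 9 clusters 5 carry 1 gene symbol, and the other 4 carry none in the array annotation.

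SLC7A11 encodes the exchanger that imports cystine for glutathione synthesis in return for glutamate. Its log2 values were 8.69, 8.77 and 8.46 in experiments 1, 2 and 3 of AA50, against 9.32, 9.03 and 9.23 in untreated cells (cluster 8102800). The highest AA50 array thus lay below the lowest untreated array, and the difference was widest in experiment 3. The change was -0.55 (SE 0.113), and it passed the threshold of 0.001 but not the adjusted one (limma, adjusted p = 0.9998). In a bulk RNA sample, fewer cells that carry a transcript and less of it per cell cannot be told apart.

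RN7SL832P, a pseudogene of the RNA of the signal recognition particle, had the smallest p. Its log2 values were 5.97, 5.92 and 5.93 in AA50 cells, against 6.53, 6.49 and 6.26 in untreated cells, a change of -0.49 (SE 0.0905). The AA50 arrays were nearly alike, and untreated replicate 3 was the nearest to them. As a pseudogene of a multicopy RNA, its probes may also read related copies, which was not tested.

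ADCY10P1, a pseudogene of the soluble adenylate cyclase, showed the widest difference of the 5 named clusters. It had log2 values of 5.76, 5.85 and 5.63 in AA50 cells, against 6.39, 6.68 and 6.50 in untreated cells, which is a change of -0.77 (SE 0.167). The 3 experiments gave differences of one sign with no overlap of the groups. AP4S1, the small subunit of the adaptor complex AP-4 of vesicle transport, had 5.39, 5.70 and 5.38 in AA50 cells, against 5.88, 5.94 and 6.03 in untreated cells (-0.46, SE 0.103). Experiment 2 gave the narrowest difference for AP4S1. SNORD116-29, a box C/D small nucleolar RNA of the Prader-Willi region, is described with its family below.

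With replicate, which stands for the experiment, as a block in the limma model, 19 clusters passed, 15 lower (0.0519% of all clusters) and 4 higher (0.0138%), and 8 of them had also passed without the block. The smallest adjusted p was 0.807. The cluster of miR-155 and its host gene MIR155HG (8068022), whose 2 symbols the array cannot separate, was among the 19. Its log2 values were 10.26, 10.13 and 9.98 in AA50 cells, against 10.73, 10.51 and 10.40 in untreated cells, with every AA50 array below every untreated array. The values of experiment 1 were highest and those of experiment 3 lowest in both groups, so that the differences of -0.47, -0.39 and -0.42 within the experiments were nearly alike. The change of -0.42 had an SE of 0.104 without the block, where limma p missed the threshold of 0.001, and of 0.0735 with it, where it passed.

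CCL1, the chemokine that attracts cells carrying the receptor CCR8, passed in the opposite direction and only with the block. Its log2 values were 9.11, 10.64 and 10.30 in AA50 cells, against 7.33, 9.37 and 9.40 in untreated cells. The groups overlapped, because both arrays of experiment 1 were low, but within each experiment the AA50 array was the higher one, by 1.78, 1.27 and 0.90. The change was 1.32, with an SE of 0.664 in limma without the block and 0.219 with it, and it was the largest positive change among clusters with 1 symbol. Clusters 7927307 and 7927367, which both carry the symbols ANXA8L1 and ANXA8, were also higher and passed only with the block. Their changes were 0.35 and 0.32, and in both the groups did not overlap.

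The other clusters with 1 symbol that passed only with the block (limma) were lower. Leukaemia inhibitory factor receptor LIFR had 5.69, 5.34 and 5.45 in AA50 cells, against 6.19, 5.62 and 5.84 in untreated cells (-0.39), and here the groups overlapped. ADGRE2, an adhesion receptor known from myeloid cells, had 9.72, 9.80 and 9.30 in AA50 cells, against 9.95, 10.10 and 10.03 in untreated cells (-0.42). These did not overlap, and experiment 3 gave the widest difference. SLC25A27, a mitochondrial carrier of the uncoupling protein family, had a change of -0.42, and APOOL, a component of the complex that shapes mitochondrial cristae, one of -0.35 at values below the lower quartile of the arrays, where a signal may be background.

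Below the threshold, the next named clusters by p were lower for SULF1, a sulfatase that edits heparan sulfate outside the cell (-0.31, SE 0.0763), and APBB2, an adaptor that binds the amyloid precursor protein (-0.42, SE 0.103). On the higher side 0 clusters passed without the block. The 8 smallest p values there belonged to DEPDC7 (0.26, SE 0.0649), the olfactory receptors OR52L1 (0.29) and OR3A3 (0.39), the artemin receptor GFRA3 (0.29), the protocadherin PCDHB3 (0.46), the uncharacterised LOC100287792 (0.49), the long noncoding RNA LINC02981 (0.36) and BTG4, an adaptor of mRNA deadenylation known from oocytes (0.32). DEPDC7, OR52L1, PCDHB3 and BTG4 lay below the lower quartile in both groups.

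Genes that ATF4 is known to induce were mostly lower in AA50 cells. Of 46 measured genes in 4 lists, 40 were lower and 6 higher, with a median change of -0.13, whereas 49.4% of all 18377 genes were lower with a median of 0.00. Of the 46, 6 had an unadjusted limma p under 0.05 in the lower direction (1.25% of all genes did) and 0 in the higher direction (0.702% did), and in 15 every AA50 array lay below every untreated array (4.8% of all genes). The higher direction held 50.6% of all genes, and 5.45% without overlap. All gene lists were chosen with earlier results of these data known, so shares set beside them are a description and not a test. The paper names SLC7A11, SLC6A9, CHAC1 and INHBE among the genes most significantly lowered by high-dose AA. Of the 46 genes SLC7A11 alone passed 0.001, against 0.0272% of all genes. The median was -0.06, -0.11 and -0.22 in experiments 1, 2 and 3. These genes are well expressed, 35 of them among the brightest 25.0% of clusters, whose median over all was -0.01, 0.00 and -0.07 in the 3 experiments, and that of the dimmest 25.0% was 0.06 in experiment 3. The part of this shift with brightness in the list medians was not tested.

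All 12 amino acid transporters of the ATF4 lists were lower, with a median of -0.12. After SLC7A11 came SLC6A9, which imports glycine, with 8.64, 8.74 and 8.46 in AA50 cells, against 8.79, 8.96 and 9.06 in untreated cells (-0.33, SE 0.111). The groups did not overlap. SLC7A5, which imports large neutral amino acids (-0.12), and SLC38A2, which imports glutamine and other small neutral ones (-0.12), were among the members nearer to 0.

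Of 12 enzymes of amino acid and one-carbon synthesis 10 were lower (median -0.13). CTH, which releases cysteine from cystathionine, had 9.24, 9.42 and 8.97 in AA50 cells, against 10.24, 9.58 and 9.53 in untreated cells. The untreated array of experiment 1 was high and made up much of the change of -0.58 (SE 0.206). Asparagine synthetase, ASNS, had 9.22, 9.16 and 9.09 in AA50 cells, against 9.52, 9.29 and 9.46 in untreated cells, again without overlap (-0.26, SE 0.0966). The mitochondrial enzymes PCK2, which makes phosphoenolpyruvate (-0.25, SE 0.116), and MTHFD1L, which makes formate (-0.14, SE 0.0725), missed an unadjusted limma p of 0.05.

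Of 16 stress regulators 14 were lower (median -0.15). CHAC1, which degrades glutathione, had 8.51, 8.72 and 8.27 in AA50 cells, against 8.63, 8.99 and 8.94 in untreated cells. The groups overlapped, since AA50 replicate 2 lay above untreated replicate 1, but each experiment gave a lower value under AA (-0.35, SE 0.154). The transcription factors DDIT3 (-0.29, SE 0.170), ATF5 (-0.25, SE 0.150) and CEBPB (-0.15, SE 0.0926) missed an unadjusted limma p of 0.05. Of 6 secreted factors 4 were lower (median -0.16). INHBE, an activin subunit, had 7.66, 7.73 and 7.64 in AA50 cells, against 7.92, 8.28 and 8.24 in untreated cells, without overlap and with a change of -0.47 (SE 0.125). It missed the threshold of 0.001 with and without the block, and passed it in 5 of 22 settings. Stanniocalcin 2, STC2, had a change of -0.46 (SE 0.287) with wide spread, because AA50 replicate 3 was at 8.49 and the other AA50 arrays at 9.05 and 8.99, while untreated arrays were at 9.30, 9.25 and 9.35. The growth factor VEGFA had -0.26 and the stress cytokine GDF15 0.10, neither with a limma p under 0.05.

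Of 19 cytosolic aminoacyl-tRNA synthetases, which charge tRNAs with amino acids and of which several are ATF4 targets, 13 were lower (median -0.09). The glycyl enzyme GARS1 had 11.75, 11.69 and 11.73 in AA50 cells, against 11.93, 11.81 and 11.99 in untreated cells (-0.19, SE 0.0706), and the alanyl enzyme AARS1 a change of -0.20 (SE 0.102). All 19 belong to the brightest 25.0% of clusters.

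ATF4 and its partners of the C/EBP family bind a composite element whose core reads TGATGNAA. Letters of this core were searched on both strands in the 250 bases before the start of transcription in the RefSeq table (GRCh38.p14), where 1104 of 35116 windows hold it (3.14%). Windows were found for 36 of the genes in the ATF4 lists, and 9 of these 58 windows, of 8 genes, hold it (15.5%), as do 3 of 21 windows of the synthetases (14.3%). The ATF4 lists were made of genes that ATF4 is known to induce, so their share of windows with the core is no result about AA. Of the 8 genes with the core 6 were lower, against 40 of all 46 measured genes in the ATF4 lists. The transcription factor JDP2 had a change of 0.02 and the hormone FGF21 one of 0.05. The windows of CHAC1 (chr15:40953221-40953470, plus strand) and ASNS (chr7:97872409-97872658, minus strand) are shown as members with the core and an unadjusted p under 0.05. Capitals mark the core, which lies 209 to 202 bases before the start on the opposite strand in CHAC1 and 68 to 61 bases before it on the gene's strand in ASNS. A match of letters is a description of the sequence, not of binding.
CHAC1: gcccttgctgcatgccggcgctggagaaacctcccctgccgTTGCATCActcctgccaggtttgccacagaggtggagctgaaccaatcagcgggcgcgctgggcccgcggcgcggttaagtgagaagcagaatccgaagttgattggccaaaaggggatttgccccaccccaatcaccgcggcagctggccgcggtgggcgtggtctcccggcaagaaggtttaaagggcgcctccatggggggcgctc
ASNS: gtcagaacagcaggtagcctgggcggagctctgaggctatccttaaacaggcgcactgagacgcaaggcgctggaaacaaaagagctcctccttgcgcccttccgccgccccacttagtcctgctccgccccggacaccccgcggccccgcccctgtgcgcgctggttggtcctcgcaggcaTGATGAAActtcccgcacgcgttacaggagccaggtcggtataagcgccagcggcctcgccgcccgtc

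ER chaperones and genes of the unfolded protein response, which overlaps the ATF4 programme at its sensor PERK, were lower in 21 of 22 cases (median -0.09), 3 with an unadjusted limma p under 0.05, whereas 49.4% of all genes were lower and 1.25% lower at this p. DNAJC3, an inhibitor of the kinases that phosphorylate eIF2α, had 9.03, 9.20 and 9.33 in AA50 cells, against 9.47, 9.47 and 9.57 in untreated cells (-0.32, SE 0.117). The ER oxidase ERO1B had -0.19 (SE 0.0692) and the co-chaperone DNAJB9 -0.30 (SE 0.125), both without overlap. The median of the list was -0.09, -0.05 and -0.10 in the 3 experiments.

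Small nucleolar RNAs guide the chemical modification of other RNAs, mostly ribosomal RNA. They were lower as a class, with the exception of the SNORD115 family. Of the 20 SNORD116 RNAs, which are processed from the introns of 1 long host transcript and have no known ribosomal target, 19 were lower with a median of -0.31, and 7 had an unadjusted limma p under 0.05. Of all genes 49.4% were lower, and 1.25% were lower at this p. Of the 5 other measured genes of the Prader-Willi region 1 was lower and 4 were higher (median 0.12), 0 of them with p under 0.05. SNORD116-29 (cluster 7982006) had 4.93, 4.90 and 4.67 in AA50 cells, against 5.42, 5.22 and 5.42 in untreated cells, without overlap (-0.52, SE 0.112), and this member alone passed the threshold of 0.001. On the AA50 arrays it lay below the lower quartile. SNORD116-13 had 4.32, 4.48 and 4.62 in AA50 cells, against 5.19, 4.79 and 5.11 in untreated cells (-0.55, SE 0.186), below the lower quartile in both groups. SNORD116-27 (-0.32, SE 0.118) and SNORD116-25 (-0.28, SE 0.113) were the next by p.

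The SNORD116 median differed among experiments, at -0.06 in experiment 1, -0.39 in experiment 2 and -0.49 in experiment 3. The family shares sequence, so that probes of 1 member may read others, and 10 of the 20 belong to the dimmest 25.0% of clusters. Of the 20 SNORD115 RNAs, all below the lower quartile, 8 were lower (median 0.02). Of 75 other box C/D RNAs, which guide 2′-O-methylation, 65 were lower (median -0.22), 10 of them at an unadjusted limma p under 0.05. Among them SNORD54 had 5.72, 5.95 and 6.09 in AA50 cells, against 6.17, 6.58 and 6.33 in untreated cells (-0.44, SE 0.131). SNORD63 (-0.40), SNORD82 (-0.53) and SNORD117 (-0.45) were the next by p, the first and second at values below the lower quartile. Of 61 box H/ACA RNAs, which guide pseudouridylation, 52 were lower (median -0.14), 7 of them at such a p (1.25% of all genes were). Among these were SNORA16B (-0.47), SNORA19 (-0.35, below the lower quartile), SNORA14B (-0.39) and SNORA2B (-0.44). By the mean over all arrays SNORA16B was also among the dimmest 25.0% of clusters. The yield of such short RNAs also depends on RNA extraction, for which the arrays hold no measure, and its part was not tested.

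MicroRNA genes did not lean to one side. Of 186 measured, 84 were lower (median 0.01), and 96 lay below the lower quartile. The 186 are read from clusters with 1 symbol, so the miR-155 cluster, which had a smaller p than MIR186, is not among them. Within the 186 the smallest p was that of MIR186, with 5.69, 5.46 and 5.69 in AA50 cells, against 6.31, 6.39 and 6.36 in untreated cells (-0.74, SE 0.223). Its groups lay far apart, with untreated arrays close to one another. The mature miR-186-3p from RefSeq (GRCh38.p14, chr1:71067642-71067663, minus strand) is given with its seed in capitals, which differs from the seeds of both miR-155 arms. The 5p arm is not shown and its seed was not compared, and the array does not read which arm is made.
hsa-miR-186-3p: gCCCAAAGgugaauuuuuuggg

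Genes that handle AA itself differed little. Of 14 genes of vitamin C transport and of dehydroascorbate handling 10 were lower (median -0.03), with 0.19 for the sodium-coupled transporter SLC23A1, -0.16 for SLC23A2 and -0.32 for the glucose transporter SLC2A3, and 0 of the 14 had an unadjusted limma p under 0.05. With replicate as a block 1 of the 14, SLC2A3, had an unadjusted limma p under 0.05. Of all 18377 genes 457 were lower and 205 higher at this p with the block. Of 27 ascorbate-dependent dioxygenases 24 were lower (median -0.08), 0 of them with p under 0.05, and the list median was 0.00, 0.02 and -0.26 in the 3 experiments, so that experiment 3 carried it. The histone demethylase KDM5B had -0.15 (SE 0.0771), and the prolyl hydroxylase EGLN3 0.17 (SE 0.0836).

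Genes of oxidant and metal defence were near or above 0. Of 23 NRF2 targets and antioxidant enzymes 18 were higher, with a median of 0.02, and 0 had a limma p under 0.05. All 9 measured metallothioneins, which bind zinc and copper, were higher (median 0.12), with MT1B at 8.02, 8.09 and 8.15 in AA50 cells, against 7.77, 7.96 and 8.02 in untreated cells (0.17, SE 0.0861), and the groups overlapped. The median of this list was 0.14, -0.02 and 0.13 in the experiments. Of 12 genes of iron handling 6 were higher. The iron exporter SLC40A1 had a change of 0.30 (SE 0.0984) without overlap of the groups, at values below the lower quartile, and heme oxygenase HMOX1 had a change of 0.12 (SE 0.100). Of 14 heat shock proteins 11 were higher (median 0.04).

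Genes of the immune phenotype went in both directions. CD40, a receptor of the TNF family that drives NF-κB, had 6.91, 7.10 and 6.95 in AA50 cells, against 7.16, 7.37 and 7.33 in untreated cells (-0.30, SE 0.100). The activation antigen CD69 had 4.74, 4.70 and 4.75 in AA50 cells, against 4.21, 4.56 and 4.52 in untreated cells (0.30, SE 0.116), at values below the lower quartile. Neither pair of groups overlapped. The interleukin-2 receptor chain IL2RA and the chemokine receptor CCR4, both abundant in HTLV-1-transformed cells, had changes of -0.07 (SE 0.0620) and -0.11 (SE 0.123).

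Of 33 cytokines and chemokines 20 were higher (median 0.04). CXCL10, which attracts activated T cells, had 7.98, 8.22 and 8.27 in AA50 cells, against 7.27, 7.87 and 7.88 in untreated cells, a difference of one sign in each experiment (0.48, with an SE of 0.245 without and 0.170 with replicate as a block). The related CXCL11 had a change of 0.20 (SE 0.0921) at values below the lower quartile, and the CCR4 ligand CCL22 one of 0.19 (SE 0.113). Of 43 interferon-stimulated genes 29 were lower (median -0.06) and 0 had a limma p under 0.05, among them PARP14 (-0.21), DTX3L (-0.21) and IFI35 (-0.23). Of 24 genes of the NF-κB pathway 20 were lower (median -0.04), with -0.21 for BIRC2, an inhibitor of apoptosis. The median of this NF-κB list was 0.05, -0.01 and -0.22 in experiments 1, 2 and 3, so that experiment 3 carried it. Over the alternative settings it ran from -0.10 to 0.01. The 33 genes of the BCL2 family and of cell death were divided, with 17 lower (median -0.02).

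All 27 measured genes of cholesterol and fatty acid synthesis were lower, with a median of -0.13, but 0 had an unadjusted limma p under 0.05 and the list median was -0.07, 0.01 and -0.25 in the 3 experiments. STARD4, which carries cholesterol within cells, had 10.30, 10.28 and 10.11 in AA50 cells, against 10.52, 10.44 and 10.55 in untreated cells (-0.27, SE 0.178). Of 39 cell cycle and replication genes 31 were higher (median 0.05), and of 72 respiratory chain subunits 50 were higher (median 0.04), in each case with 0 at p under 0.05. Of 63 cytosolic ribosomal proteins 32 were higher (median 0.00), and RPS24 had 9.90, 9.70 and 9.72 in AA50 cells, against 9.49, 9.45 and 9.57 in untreated cells (0.27, SE 0.101). Of 20 genes of p53 and its targets 13 were lower (median -0.06), and of 24 hypoxia and glycolysis genes 17 (median -0.03), with medians above 0 in experiment 1 and below 0 in experiment 3 for both.

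The intermediate dose was also set against the doses on either side of it. These comparisons share the AA50 arrays with the one above, and differences from untreated cells at each dose share the untreated arrays. Against 10 µg/ml, 1 cluster passed limma at p under 0.001 (0.00346% of clusters), with 206 at p under 0.05. Against 100 µg/ml, 12 passed (0.0415%), 10 of them lower at the intermediate dose and 2 higher, with 1092 at p under 0.05. At an adjusted p under 0.05 limma passed 0 clusters in either, the smallest values being 1 and 0.917.

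ADCY10P1 was the cluster that passed against the low dose, and it also passed against the high dose. These calls held in 11 of 21 settings against the low dose and in 9 of 20 against the high dose, and the first was lost with cyclic loess, with array weights and in a model of the compared groups alone. Its log2 values by dose were 6.52 ± 0.15 in untreated cells, 6.47 ± 0.37 at 10 µg/ml, 5.75 ± 0.11 at 50 µg/ml and 6.45 ± 0.16 at 100 µg/ml (SD, n = 3 each). The AA50 arrays lay below every array of the other 3 conditions, by -0.72 against the low dose and by -0.70 against the high dose (SE 0.167 for each). With IFN-α it had 6.27, 5.82 and 6.22 (-0.42 from untreated cells), and the lowest of these lay below AA50 replicate 2. SLC7A11 was 9.20 ± 0.15, 8.98 ± 0.09, 8.64 ± 0.16 and 8.56 ± 0.12 in the same order of doses (SD, n = 3 each). Between 50 and 10 µg/ml SLC7A11 differed by -0.33 (SE 0.113), and between 50 and 100 µg/ml by 0.08 (SE 0.113), less than the spread of the arrays, and neither passed the threshold of 0.001.

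The miR-155 cluster was 10.55 ± 0.17, 10.32 ± 0.12, 10.12 ± 0.14 and 10.01 ± 0.08 from untreated cells to the high dose (SD, n = 3 each), and INHBE 8.15 ± 0.19, 7.95 ± 0.03, 7.68 ± 0.05 and 7.43 ± 0.28. Neither neighbouring dose differed from 50 µg/ml past the threshold. On the IFN-α arrays the miR-155 cluster had 10.39, 10.19 and 10.24 (-0.27 from untreated cells), also below every untreated array. At 10 µg/ml AA its change was -0.22. CCL1 was 8.70 ± 1.19, 10.17 ± 1.28, 10.02 ± 0.80 and 10.36 ± 0.71, and its level at 50 µg/ml differed from that at 10 µg/ml by -0.15 and from that at 100 µg/ml by -0.35, both less than the spread. The median change from untreated cells was -0.05, -0.13 and -0.27 over the ATF4 lists and -0.24, -0.31 and -0.59 over the SNORD116 RNAs at 10, 50 and 100 µg/ml, with the untreated arrays shared by all 3 values. For IFN-α without AA, from the same untreated arrays, it was -0.0057 over the ATF4 lists and -0.16 over the SNORD116 RNAs.

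**Figure D1:**
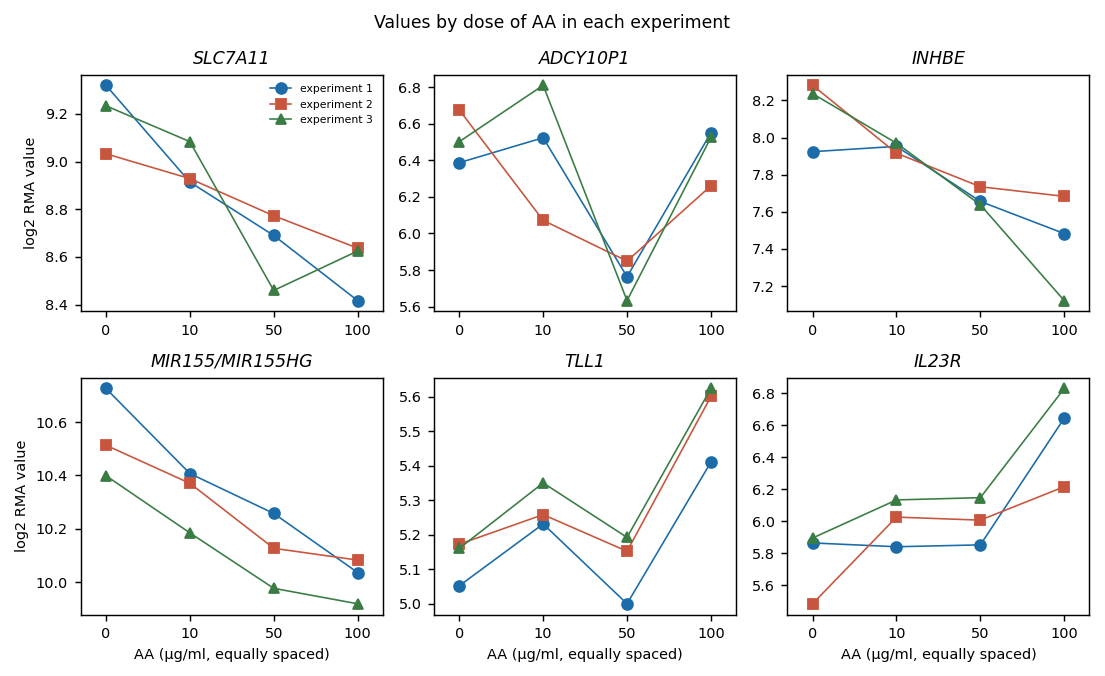
Log2 RMA values (y-axis) of 6 clusters at 0, 10, 50 and 100 µg/ml AA (x-axis, doses equally spaced and not to scale), with a line for each experiment. ADCY10P1 is lowest at 50 µg/ml in every experiment, whereas TLL1 and IL23R are highest at 100 µg/ml in every experiment.

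The metalloprotease TLL1 had the smallest p against the high dose. It was 5.13 ± 0.07, 5.28 ± 0.06, 5.11 ± 0.10 and 5.55 ± 0.12 by increasing dose (SD, n = 3 each), so that the intermediate dose lay near untreated cells (-0.01) and 0.43 below the high dose (SE 0.0810), which passed the threshold, at values below the lower quartile in untreated and AA50 cells. IL23R, which encodes a chain of the receptor of interleukin 23, had 5.85, 6.01 and 6.15 at 50 µg/ml and 6.64, 6.22 and 6.83 at 100 µg/ml. The difference of -0.56 missed the threshold in the main model and passed with replicate as a block (SE 0.118), and it passed in 4 of 20 settings. From untreated cells (5.87, 5.49 and 5.90) it differed by 0.25 at 50 µg/ml (SE 0.152), and the groups overlapped.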

How the data were processed

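The authors hybridised RNA of MT-2 cells to Affymetrix Human Gene 1.0 ST Arrays and deposited log2 values per transcript cluster, made by RMA (background correction, quantile normalization, summarization over probes) with the package xps, as the paper's methods state. Quantile normalization removes any shift common to all transcripts. No further normalization was applied, and raw intensities were not analysed here. By the platform annotation 19310 clusters carry 1 symbol, 1752 several and 7864 none, and the first name 18377 genes. Values of 546 clusters repeat those of another. The annotation names no genome build, so positions are given only for RefSeq sequences.

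Contrasts came from 1 limma model (limma 3.58.1, R 4.3.3) over all 15 arrays with 5 groups and no block (the methods of the paper give contrasts in limma without mention of a block or of which arrays entered 1 model), with default empirical Bayes settings (3.91 prior and 10 residual degrees of freedom). The threshold of the paper, a two-sided unadjusted p under 0.001, defined a call, with Benjamini-Hochberg values beside it. A gene in a list is read by its brightest cluster, and a list is described by counts and its median with no test. The members, 39 lists, tests and rules were chosen with earlier results of these data known. Named were the called clusters with 1 symbol (with and without the block), the 8 smallest p per direction, up to 4 members per list, the miR-155 cluster, and up to 5 clusters per direction against the neighbouring doses. A few list members outside these rules were named after their values were seen (JDP2, FGF21).

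The replicate number is the experiment tag of the titles, which pairs the arrays. After subtraction of group means, 2 arrays correlated with a median of 0.281 over the 30 pairs of the same experiment and -0.172 over the 60 others. The AA50 and untreated arrays correlated at 0.272, 0.232 and 0.0204 in experiments 1, 2 and 3, so that in the last the pairing rests on the label. Alternatives were a replicate block, fixed or random (statmod 1.5.0), other sets of arrays and clusters, cyclic loess, array weights, a variance with trend and robust fitting, a threshold of 0.005 and leaving out each array or experiment. The model was tested on simulated data. Precision is limited by the number of arrays, 3 per group. The plots were made in matplotlib 3.10.9.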

Additional observations from a re-analysis of the deposited data

How the results depend on the processing

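For AA50 against untreated cells, 9 clusters passed. The count was 58 at p under 0.005 (44 lower), 19 with replicate as a block, 17 with a random block, 71 with array weights (50 lower), 29 without high-dose replicate 3, and, in fits added after the data were seen, 84 with the block and without high-dose replicate 3 (40 lower and 44 higher) and 41 with the block in the compared groups alone. Leaving out arrays or experiments gave 3 to 29, with 19 without AA50 replicate 2, 4 without AA50 replicate 3, 3 without untreated replicate 3 and 3 without replicate 1. Against the low dose 1 cluster passed, with 4 at p under 0.005, 2 with the block, 2 in the compared groups alone, 13 with array weights, 8 with the block and without high-dose replicate 3, and 0 to 2 in leave-one-out fits (0 without AA50 replicate 1 or 3, low-dose replicate 3 or the whole of replicate 1, and 2 without AA50 replicate 2, high-dose replicate 3 or the whole of replicate 2 or 3). Against the high dose 12 passed, with 80 at p under 0.005, 25 with the block, 24 with a random block, 1 in the compared groups alone, 2 among clusters with 1 symbol, 25 with the block and without high-dose replicate 3, and 6 to 73 in leave-one-out fits (68 and 73 without high-dose replicates 1 and 2, 7 without AA50 replicate 1, 6 without replicate 3). The cause of these moves was not tested.

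The median of the ATF4 lists stayed between -0.16 and -0.08 and that of the SNORD116 RNAs between -0.43 and -0.24 in 14 alternatives each, while the SNORD115 median could not be had without the dimmest 25%, which removed all its members. Of 34 lists 13 changed the sign of their median in at least 1 setting. Of 81 gene values 79 kept their direction in every setting. Leaving out arrays or experiments, the change of GDF15 ran from -0.092 to 0.21, with -0.020 without untreated replicate 1, and that of SLC7A11 at 50 against 100 µg/ml from -0.015 to 0.20, both lowest without replicate 1. SLC7A11 against untreated cells passed in 15 of 22 settings, RN7SL832P in 20, ADCY10P1 in 16, SNORD116-29 in 14 of 21, AP4S1 in 13 of 22, the miR-155 cluster in 9 of 21 and CCL1 in 4 of 22. Of all clusters 6749 lay below the lower quartile on all 3 untreated arrays, where a signal may be background.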

Other observations

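The 4 clusters without a symbol that passed without the block were 7914178 (6.17, 5.84 and 5.88 in AA50 cells, against 6.41, 6.42 and 6.43 in untreated cells), 7925561 (8.34, 8.45 and 8.48 in AA50 cells, against 9.13, 8.79 and 8.85 in untreated cells), 8096777 (6.89, 7.50 and 7.37 in AA50 cells, against 8.05, 7.94 and 7.83 in untreated cells) and 8140035 (6.11, 6.64 and 6.35 in AA50 cells, against 7.21, 7.17 and 6.92 in untreated cells), each without overlap between the groups. With replicate as a block 7925561 missed the threshold, and it was the 1 cluster of the 9 to do so. The largest positive change of any cluster belonged to another without a symbol, 7970392. It had 9.63, 9.92 and 11.57 in AA50 cells, against 8.82, 8.99 and 9.33 in untreated cells, with 1.33 as the change, which passed 0.001 only with replicate as a block, and experiment 3 gave the widest difference. Over the 9 clusters that passed at 50 µg/ml, the median change from the shared untreated arrays was -0.22 at 10 µg/ml (9 lower) and -0.43 at 100 µg/ml (8 lower). With IFN-α and no AA it was -0.15 (9 lower), and the changes ran from -0.42 to -0.0061, the last for SLC7A11. Each of these values rests on the untreated arrays by which the clusters were called, so their signs are no test of a response to AA or IFN-α.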
